A study of Mus musculus with 62 samples.

Results

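The diaphragm muscle of mice that carried a cachectic melanoma was compared with that of mice that carried a non-cachectic melanoma, 8 weeks after cancer cell injection. The 12 RNA-seq libraries of these mice, 7 from cachectic (CAC) and 5 from non-cachectic (NCAC) tumor bearers, were taken by their group and time labels from the 62 libraries of the series. The other libraries came from 2, 4 and 6 weeks and from mock-injected mice (Con), and they entered the model that estimated the spread between mice. All mice were female. The labels and the design give an age of 2 months, which the study's methods state for the start of the experiment, and the age at sampling is not given separately. The submitted design and the study's methods for melanoma xenografts name NCI Ath/nude mice, a strain without a thymus that accepts human grafts. The sample labels instead give C57BL6/J, a strain that the methods name for mice with another tumor, Lewis lung carcinoma. The labels thus disagree with the design and the methods on the strain. According to the methods of the study, the 2 kinds of tumor were patient-derived melanoma xenografts implanted under the skin of the flank, so that each tumor condition stands for 1 xenograft and a difference between the conditions cannot be told apart from other differences between these xenografts. The labels give no other treatment. The comparison addresses which muscle transcripts differ when the tumor causes body wasting rather than when a tumor is merely present. The labels number the libraries as replicates. Each is taken as 1 mouse, since the study counts individual animals or tissues from separate animals. Transcript levels are in TPM, a unit that corrects for transcript length, sums to the same total in every library and keeps no read depth.

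Cancer cachexia is a loss of muscle and fat that feeding does not fully reverse. In wasting muscle, inflammatory cytokines of the IL-6 family act through the transcription factor STAT3, and glucocorticoids act through their nuclear receptor; both are known to raise acute-phase and catabolic genes. Muscle ubiquitin ligases such as Trim63 (MuRF1) and Fbxo32 (atrogin-1) mark myofibrillar proteins for the proteasome, whereas lysosomes degrade the cargo delivered by autophagy. The diaphragm is the main muscle of inspiration and works continuously.

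The libraries were first examined for quality. Defining transcripts of skeletal muscle were abundant in all 12 libraries, with a summed level of the 13 markers between 42550 and 107200 TPM in cachectic mice and between 74840 and 84890 TPM in non-cachectic mice. Cachectic mouse 3 stood apart from the rest. It listed 15263 genes above 0 TPM, against 18066 to 18634 in the other cachectic mice and 18073 to 18773 in non-cachectic mice, and mitochondrially encoded transcripts made up 57.1% of its TPM. Its median rank correlation with the libraries of its own group was 0.79, whereas that of every other library of the 12 was at least 0.946. Its median log2 difference from the non-cachectic mean over all tested genes was -0.99, compared to -0.07 to 0.22 in the other cachectic mice. Values without this mouse are given where a count or a call depends on it.

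A total of 13578 genes reached 1 TPM in at least 5 of the 62 libraries and were tested on log2(TPM + 1) with limma, with p-values adjusted by the method of Benjamini and Hochberg. With an adjusted p under 0.05 required together with a change of more than 1 on the log2 scale, 157 genes (1.16% of those tested) were higher and 187 genes (1.38%) were lower in cachectic mice. At an adjusted p under 0.05 and any size, 917 genes (6.75%) were higher and 840 genes (6.19%) were lower. Without cachectic mouse 3, 269 genes were higher and 124 lower by the first threshold, of which 153 and 115 were also called with all mice, and 1775 (13.1%) and 646 (4.76%) passed at any size. Genes higher in cachectic mice thus made up 45.6% of the calls with mouse 3 and 68.4% without it. The median log2 difference of all tested genes was -0.08 with this mouse and 0.08 without it. The scale also moved this balance, since 60.3% of calls were higher after median-ratio scaling, 55.9% after quantile normalization and 31.1% when TPM was rescaled over nuclear genes. Rescaling over nuclear genes shifted the median of all genes to -0.19, so that changes are best read against that median. List members below are counted at an adjusted p under 0.05 and any size. These counts are to be read beside the shares of all genes given above, with and without mouse 3.

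The called genes were chosen on the values of these same mice, which favors a separation of the groups among them. In 142 of the 157 genes called higher, at least 6 of the 7 cachectic mice lay above all 5 non-cachectic mice, and in 47 all 7 did. Of the 187 genes called lower, 146 had at least 6 cachectic mice below the non-cachectic range and 100 had all 7. Over all tested genes, every cachectic mouse was above every non-cachectic mouse for 2.45% of genes and below for 2.42%. The share with at least 6 mice outside was not computed over all genes. In cachectic mouse 3, whose median over all tested genes was -0.99, the median log2 difference was 0.18 over the genes called higher, against 1.46 to 1.80 in the other 6 mice, and -2.25 over the genes called lower, against -1.57 to -0.71.

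Promoters of 3 genes with large increases are shown because each holds letters that match a hormone or metal response element, as described for each gene further on. The sequences are the 250 bases before the start site in RefSeq (GRCm38.p6), 5′ to 3′ on the strand of the gene. They cover chr12:104406458-104406707 (plus strand) for Serpina3n, chr8:94178839-94179088 (plus strand) for Mt1 and chr8:94172368-94172617 (plus strand) for Mt2. Capitals mark matches to a glucocorticoid response element (GNACANNNTGTNC) or to the core of a metal response element (TGCACNC or TGCGCNC), on either strand; the 2 kinds of match do not overlap in these windows.
Serpina3n: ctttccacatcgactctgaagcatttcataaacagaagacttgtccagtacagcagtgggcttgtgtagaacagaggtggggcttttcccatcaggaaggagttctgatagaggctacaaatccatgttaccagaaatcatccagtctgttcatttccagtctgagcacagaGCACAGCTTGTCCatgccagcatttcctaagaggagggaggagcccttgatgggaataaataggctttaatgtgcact
Mt1: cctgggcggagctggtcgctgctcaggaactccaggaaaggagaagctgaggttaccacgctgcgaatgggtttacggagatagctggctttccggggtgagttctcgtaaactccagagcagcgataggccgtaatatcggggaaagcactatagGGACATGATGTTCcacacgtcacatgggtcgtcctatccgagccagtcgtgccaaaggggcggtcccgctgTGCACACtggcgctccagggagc
Mt2: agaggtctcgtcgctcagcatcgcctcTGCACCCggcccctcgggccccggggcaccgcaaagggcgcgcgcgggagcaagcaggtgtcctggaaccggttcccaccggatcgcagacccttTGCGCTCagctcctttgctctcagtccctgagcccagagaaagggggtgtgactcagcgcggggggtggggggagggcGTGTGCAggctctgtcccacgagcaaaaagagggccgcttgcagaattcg
The glucocorticoid element letters were found 78 bases upstream of Serpina3n and 94 bases upstream of Mt1, and occur in 0.387% of 32851 RefSeq promoters of this length. The metal element letters were found 23 bases upstream of Mt1 and 223, 128 and 50 bases upstream of Mt2, and occur in 21.4% of promoters and in 29.0% of those of the genes tested. The window of Fkbp5 held E-box letters (CACGTG) 169 bases upstream and neither of these elements, and that of Socs3 held the letters of a STAT element (TTCNNNGAA) 154 bases upstream. E-box letters occur in 6.02% of promoters and STAT letters in 7.02%. In the windows of Lcn2, Saa1, Nmrk2, Apod and Ccl8, the letters of these 4 elements were not found. A match is a description of the letters and not of binding.

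Acute-phase genes, which encode plasma proteins and protease inhibitors that rise in inflammation, held several of the largest increases. Serpina3n, a secreted inhibitor of serine proteases (chr12:104406729-104414329 on the plus strand; gene positions are from GENCODE on GRCm38), ranged from 18.4 to 1062 TPM with a median of 614 in cachectic mice, against 6.91, 7.08, 21.7, 6.93 and 4.82 TPM in non-cachectic mice. The lowest cachectic value belongs to mouse 3 and lies below the highest non-cachectic value, while the other 6 mice were at 322 TPM or more. The log2 fold change was 5.24 ± 0.64 (SE; limma adjusted p = 7.28e-08) and 5.93 without mouse 3. Lcn2, the siderophore-binding lipocalin 2, was at 5.19 to 83.3 TPM (median 65.3) in cachectic mice and at 2.61, 2.24, 4.72, 3.46 and 2.29 TPM in non-cachectic mice, so the groups did not overlap. Its log2 fold change was 3.53 ± 0.39 (limma adjusted p = 6.45e-09). Apod, a lipid-binding lipocalin, is named here for the size of its change. It rose from 20.4 ± 8.23 to 209 ± 91.0 TPM (SD, n = 5 and 7), with a log2 fold change of 3.19 ± 0.29 (limma adjusted p = 2.34e-11). All 7 cachectic mice were above the non-cachectic range for Apod, with mouse 3 the lowest at 50.03 TPM. Without mouse 3 the log2 fold change was 4.01 for Lcn2, 3.5 for Apod, 4.44 for Saa1, 3.64 for Hp and 3.56 for Itih4. Saa1, serum amyloid A1, was at 3.38 to 422 TPM in cachectic mice and at most 0.935 TPM in non-cachectic mice (log2 fold change 4.08 ± 0.77, limma adjusted p = 0.00013). Hp, the hemoglobin scavenger haptoglobin, was at 128 to 432 TPM in cachectic mice and at 44.0, 4.13, 92.5, 8.07 and 9.21 TPM in non-cachectic mice (log2 fold change 3.53 ± 0.88, limma adjusted p = 0.00363). Itih4, an inter-alpha-trypsin inhibitor heavy chain, was at 3.78 to 71.2 TPM against 0.354 to 5.88 TPM, and its log2 fold change was 3.23 (limma adjusted p = 0.00596).

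**Figure D1:**
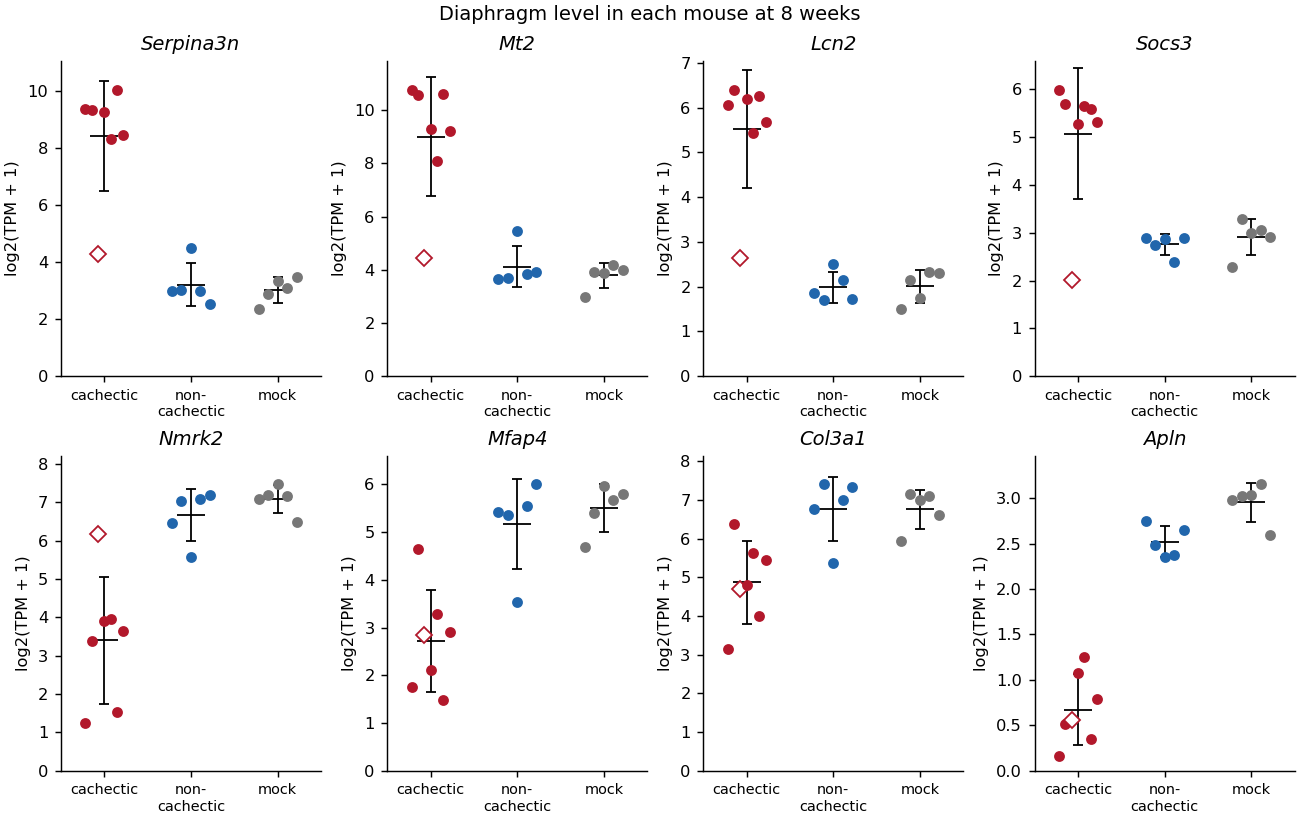
Levels of 8 genes in each mouse at 8 weeks on log2(TPM + 1), for cachectic (red), non-cachectic (blue) and mock-injected (grey) mice; bars give mean ± SD and the open diamond is cachectic mouse 3. In Serpina3n and Mt2 the diamond lies beside the non-cachectic mice while the other 6 cachectic mice are above them, and in Apln all 7 cachectic mice are below all 5 non-cachectic mice.

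Of the 27 acute-phase genes tested, 9 were higher and 1 was lower at an adjusted p under 0.05 (12 and 1 without mouse 3), with a median log2 fold change of 1.45 against -0.08 for all genes. In the Serpina3 family, 5 of 7 tested genes were higher and none lower, with a median of 1.93, and no family member had a negative estimate. For example, Serpina3h was at 11.99 ± 4.00 TPM against 1.78 ± 0.394 TPM and Serpina3i at 3.39 ± 0.992 TPM against 0.439 ± 0.0770 TPM, both with all 7 cachectic mice above the non-cachectic range. Serpina3m was at 7.65 to 31.3 TPM in 6 cachectic mice but at 0.337 TPM in mouse 3, within the range of 0.086 to 1.5 TPM of non-cachectic mice. These genes are related members of a family on chromosome 12, and how reads were divided among them is uncertain.

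Liver transcripts moved with the acute-phase genes in some of the mice. Albumin, a liver marker, was at 163 TPM in cachectic mouse 1, at 1022 TPM in mouse 2 and at 33.1 TPM in mouse 3, but at 1.12 TPM or less in mice 4 to 7 and at 0.234 to 129 TPM in non-cachectic mice. The 15 liver markers summed to 147.5 to 2800 TPM in cachectic mice and to 44.0 to 679 TPM in non-cachectic mice; none of the 15 passed the test, and their median log2 fold change was 0.98. The median log2 difference of the acute-phase list followed the same mice, with 2.48 and 4.41 in cachectic mice 1 and 2 and 0.35 to 0.79 in the other 5. When mice 1 and 2 were left out, the liver median was -0.17 and the acute-phase median was 0.54, with 9 of 27 genes higher. Serpina3n (log2 fold change 4.87), Lcn2 (3.25), Apod (2.94), Hp (3.28), Saa1 (2.76) and Itih4 (2.84) each kept a limma adjusted p under 0.05 without these mice. The highest were 0.0429 for Itih4 and 0.0235 for Hp.

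Metallothioneins, cysteine-rich proteins that bind zinc and copper, were likewise higher. Mt2 (chr8:94172664-94173568) was at 20.9 to 1750 TPM (median 622) in cachectic mice and at 11.8, 11.8, 43.2, 13.5 and 14.2 TPM in non-cachectic mice, with a log2 fold change of 4.88 ± 0.65 (limma adjusted p = 4.13e-07; 5.64 without mouse 3). Mt1 (chr8:94179082-94180327) was at 118 to 1868 TPM (median 814) against 85.5, 75.1, 145, 85.5 and 77.1 TPM, with a log2 fold change of 3.10 ± 0.42 (limma adjusted p = 6.26e-07; 3.55 without mouse 3). For both genes the lowest cachectic value was that of mouse 3 and fell inside the non-cachectic range, and the highest non-cachectic value was that of non-cachectic mouse 3. Slc39a14, a zinc and iron importer, was at 14.9 to 95.5 TPM in 6 cachectic mice, at 0.393 TPM in mouse 3 and at 3.34 to 4.26 TPM in non-cachectic mice (log2 fold change 2.09, limma adjusted p = 0.00193). Of 22 tested genes for metallothioneins and zinc transporters, 3 were higher and 1 lower, with a median log2 fold change of -0.02, and 6 were higher and none lower without mouse 3, with a median of 0.09.

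Genes of IL-6 family signalling were higher in part. Socs3, the feedback inhibitor that STAT3 induces, was at 37.6 to 62.5 TPM in 6 cachectic mice and at 3.04 TPM in mouse 3, against 6.38, 5.72, 6.26, 4.21 and 6.46 TPM in non-cachectic mice (log2 fold change 2.32 ± 0.35, limma adjusted p = 4.97e-06; 2.83 without mouse 3). Osmr, the receptor for oncostatin M, was at 16.6 to 19.1 TPM in the same 6 mice and at 3.72 to 4.85 TPM in non-cachectic mice (log2 fold change 1.5, limma adjusted p = 1.22e-05). Cebpd, a transcription factor of the acute-phase response, was at 47.0 ± 30.3 TPM against 11.3 ± 7.36 TPM (limma adjusted p = 0.00195), and Junb was at 49.4 ± 32.0 TPM against 13.5 ± 1.68 TPM (limma adjusted p = 0.00265). These genes were within or below the non-cachectic range in mouse 3 and above it in the other 6 mice. Il6ra, the IL-6 receptor, was at 0.341 TPM in mouse 3, at 11.4 to 38.4 TPM in the other 6 and at 6.55 to 8.86 TPM in non-cachectic mice; it did not pass the test with mouse 3 (log2 fold change 0.67, limma adjusted p = 0.369) and passed without it (1.22, limma adjusted p = 0.0108). Of 29 tested genes of the pathway, 9 were higher and 2 lower with a median of 0.46, and 15 were higher and 1 lower without mouse 3.

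Genes known to respond to glucocorticoids were higher in part, and their count depended on mouse 3, as did that of all genes. Fkbp5, a chaperone that binds the receptor, was at 73.1 to 183 TPM in 6 cachectic mice, at 1.61 TPM in mouse 3 and at 9.38, 10.4, 36.3, 9.21 and 6.31 TPM in non-cachectic mice. Its log2 fold change was 2.29 ± 0.66 with mouse 3 (limma adjusted p = 0.0122) and 3.06 without it (limma adjusted p = 3.09e-05). Hsd11b1, the enzyme that regenerates active glucocorticoid, was at 9.12 to 27.4 TPM in cachectic and at 1.92 to 5.62 TPM in non-cachectic mice, with no overlap between the groups (log2 fold change 1.99, limma adjusted p = 0.000409). Ddit4, an inhibitor of mTORC1, was at 99.1 ± 82.6 TPM against 20.4 ± 11.3 TPM (log2 fold change 1.90, limma adjusted p = 0.0161) and did not pass without cachectic mice 1 and 2 (limma adjusted p = 0.109). Of 38 tested genes in the list, which includes both metallothioneins, 11 were higher and 2 lower with a median of 0.51, and 22 were higher and 1 lower without mouse 3. Of all tested genes, 6.75% were higher with mouse 3 and 13.1% without it. Without cachectic mice 1 and 2, 6 genes of the list were higher and 1 lower, and Fkbp5 did not pass (limma adjusted p = 0.0726).

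The 2 best known ubiquitin ligases of muscle atrophy did not pass the test at 8 weeks. Trim63 was at 1303, 214, 218, 128, 710 and 187 TPM in cachectic mice 1, 2, 4, 5, 6 and 7 and at 29.4 TPM in mouse 3, against 143, 133, 159, 103 and 125 TPM in non-cachectic mice. Thus 5 mice were above the non-cachectic range and 1 was below it (log2 fold change 0.79 ± 0.41, limma adjusted p = 0.226; 1.27, limma adjusted p = 0.00489 without mouse 3). Fbxo32 was at 75.2 to 655 TPM in the 6 mice other than mouse 3, with 3 mice above and 2 below the non-cachectic range of 122 to 154 TPM once mouse 3, at 16.8 TPM, is counted (log2 fold change 0.12 ± 0.41, limma adjusted p = 0.895). Trim55 (MuRF2) and Asb2 were lower, with log2 fold changes of -0.98 (limma adjusted p = 0.0198) and -0.99 (limma adjusted p = 0.0439), but neither passed without mouse 3 (limma adjusted p = 0.0658 and 0.147). Of 27 tested ligases none was higher and these 2 were lower. Without mouse 3, 5 were higher and none lower. The shares over all genes were 6.75% higher and 6.19% lower, and 13.1% and 4.76% without mouse 3. Neither Trim55 nor Asb2 passed without cachectic mice 1 and 2 (limma adjusted p = 0.0838 and 0.154).

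Proteasome subunits were higher by a smaller amount. Of 35 tested subunits, 14 were higher and none lower, with a median of 0.26, and 8 subunits had all 7 cachectic mice above all non-cachectic mice. Psmb1, a subunit of the catalytic core, was at 235 to 345 TPM against 163 to 191 TPM (log2 fold change 0.72 ± 0.13, limma adjusted p = 7.79e-05). Psma7 was at 60.2 to 104 TPM against 42.5 to 51.4 TPM (log2 fold change 0.66 ± 0.11, limma adjusted p = 1.79e-05). Under the other 3 scalings 11 subunits were higher and none lower, and without cachectic mice 1 and 2 the count was 9. Among lysosomal genes, 7 of 32 were higher and none lower, and 17 were higher without mouse 3. The protease cathepsin L (Ctsl) was at 226 to 638 TPM in cachectic mice and at 160, 148, 186, 149 and 155 TPM in non-cachectic mice, without overlap (log2 fold change 1.02 ± 0.19, limma adjusted p = 0.000144), and the proton pump subunit Atp6v1h was at 4.99 to 17.4 TPM against 3.79 to 5.57 TPM (log2 fold change 1.03, limma adjusted p = 4.47e-06). Of 36 autophagy and FoxO genes, 4 were higher and 2 lower with all mice, and 11 were higher and 2 lower without mouse 3. Beside these counts, 6.75% of all genes were higher and 6.19% lower, and 13.1% and 4.76% without mouse 3. Map1lc3b, which coats autophagosomes, was at 171 ± 63.1 TPM against 88.5 ± 8.62 TPM (limma adjusted p = 0.000529), whereas Trp53inp2, an autophagy regulator, fell from 239 ± 40.3 to 98.0 ± 44.3 TPM with all 7 cachectic mice below the non-cachectic range (limma adjusted p = 0.000339).

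**Figure D2:**
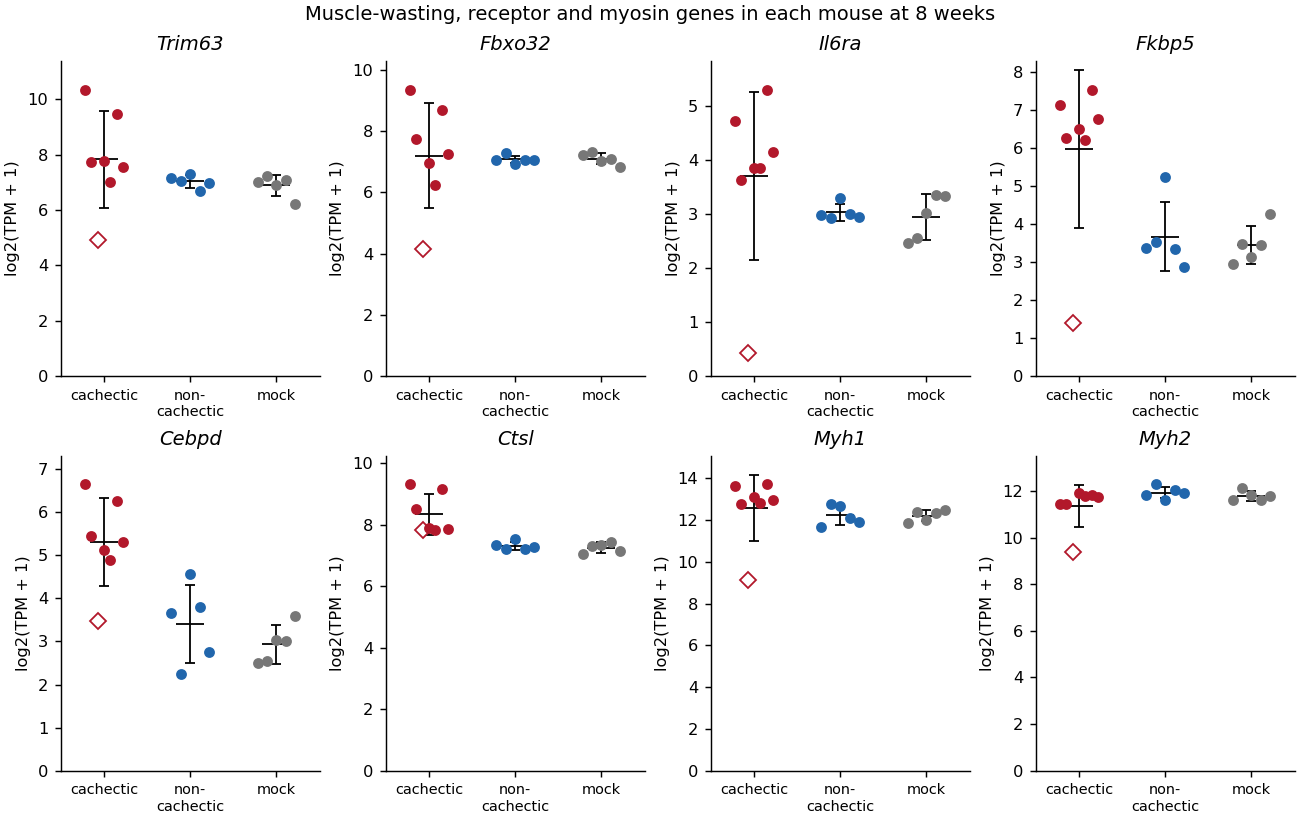
Levels of 8 genes for ubiquitin ligases, IL-6 and glucocorticoid signalling, cathepsin L and fast myosins in each mouse at 8 weeks on log2(TPM + 1), with mean ± SD bars; red is cachectic, blue non-cachectic and grey mock-injected, and the open diamond is cachectic mouse 3. The diamond is the lowest cachectic point for Trim63 (29.4 TPM), Fbxo32 (16.8 TPM) and Fkbp5 (1.61 TPM), whereas all 7 cachectic mice are above the non-cachectic mice for Ctsl.

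Most cytosolic ribosomal protein genes were higher by a small amount. Of 78 tested genes, 71 were higher and none lower, with a median log2 fold change of 0.69, and in 60 of them all 7 cachectic mice were above all 5 non-cachectic mice. Cachectic mouse 3 shared this pattern, with a median difference of 0.51 against 0.40 to 1.13 in the other mice. Rps28 was at 196 to 335 TPM against 90.0 to 161 TPM (log2 fold change 0.93 ± 0.15, limma adjusted p = 1.29e-05), and Rps25 was at 773 to 1576 TPM against 441 to 667 TPM (log2 fold change 0.86 ± 0.15, limma adjusted p = 7.01e-05). The count was 75 without mouse 3, 67 without mice 1 and 2, and 67 to 70 under the other 3 scalings. Short genes as such were more often higher in cachectic mice: among the genes outside this list, 13.5% of those with up to 1000 exonic bases and 15.3% of those with 1000 to 2000 passed the test, compared to 3.41% of those with 4000 to 8000 and 2.11% of longer genes. The ribosomal protein genes had a median exonic length of 1775 bases, and the part of transcript length in their increase was not tested. Ribosomal protein genes also have many processed copies in the genome that can share reads. Of 38 translation factor and ribosome biogenesis genes, 9 were higher and none lower with all mice and 15 and none without mouse 3; Eif4ebp1, a repressor of cap-dependent translation, was at 99.3 to 605 TPM against 74.0 to 148 TPM (log2 fold change 1.62 ± 0.25, limma adjusted p = 6.51e-06).

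Among contractile genes, a minority of members passed the test. None of the 9 myosin heavy chain genes tested passed with all mice, and Myh1 passed without mouse 3. Myh1, the fast type 2x heavy chain, was at 6969 to 13380 TPM in 6 cachectic mice and at 560 TPM in mouse 3, against 3240, 7035, 6470, 4441 and 3853 TPM (log2 fold change 0.35, limma adjusted p = 0.651; 0.93, limma adjusted p = 0.0168 without mouse 3). Myh2 of type 2a fibers was at 2956 ± 1090 TPM against 3946 ± 703 TPM and Myh7 of slow fibers at 535 ± 311 TPM against 507 ± 145 TPM (limma adjusted p = 0.184 and 0.77). Of 51 sarcomere genes, 5 were higher and 5 lower with all mice, and 11 were higher and 6 lower without mouse 3. The most reduced were Ky, a Z-disc protein needed for muscle growth under load, at 1.5 to 23.7 TPM against 29.0, 56.4, 13.6, 70.0 and 58.4 TPM (log2 fold change -2.38 ± 0.45, limma adjusted p = 0.000137), and Actc1, cardiac alpha-actin, at 0.165 to 2.73 TPM against 2.29 to 10.8 TPM (-1.90, limma adjusted p = 0.00202). The stretch-responsive Ankrd2 was instead higher at 765 ± 423 TPM against 218 ± 96.1 TPM (limma adjusted p = 0.00629).

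Calcium handling genes were more often lower than higher, with 7 of 31 lower and 3 higher and a median of -0.32 (6 and 4 without mouse 3, median -0.07). Casq1, the calcium store protein calsequestrin 1, was at 139 to 471 TPM in cachectic mice and at 742, 865, 556, 784 and 814 TPM in non-cachectic mice, without overlap (log2 fold change -1.27 ± 0.23, limma adjusted p = 6.88e-05; -1.29 without mouse 3). The calcium buffer Pvalb was at 121 to 415 TPM against 513 to 836 TPM (limma adjusted p = 0.00188), and Jph2, which joins the transverse tubule to the sarcoplasmic reticulum, at 10.7 to 92.0 TPM against 129 to 147 TPM (limma adjusted p = 0.00559). Cacng1, a subunit of the muscle calcium channel, was by contrast higher at 99.9 ± 46.4 TPM against 31.5 ± 10.3 TPM (log2 fold change 1.53, limma adjusted p = 5.47e-05). At the neuromuscular junction, Colq, which anchors acetylcholinesterase, fell from 14.9 ± 4.58 to 5.29 ± 1.54 TPM with all 7 cachectic mice below the non-cachectic range (limma adjusted p = 0.0011), and the acetylcholine receptor subunit Chrna1 rose from 6.92 ± 1.28 to 10.97 ± 3.96 TPM (log2 fold change 0.54, limma adjusted p = 0.0135). Myog, a myogenic factor that rises on denervation, did not pass (log2 fold change 0.18, limma adjusted p = 0.808).

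The most reduced gene was Nmrk2, the muscle nicotinamide riboside kinase that makes NAD precursor (chr10:81198170-81202051). It was at 1.36, 9.37, 14.1, 14.4, 1.89 and 11.5 TPM in cachectic mice 1, 2, 4, 5, 6 and 7 and at 86.5, 131, 47.1, 134 and 146 TPM in non-cachectic mice, but at 71.5 TPM in cachectic mouse 3. Cachectic mouse 3 alone overlapped the non-cachectic range here, whereas over all genes called lower it was the lowest of the cachectic mice by its median. The log2 fold change was -3.27 ± 0.52 (limma adjusted p = 1.03e-05) and -3.73 without mouse 3. Of 21 tested NAD genes, 1 was higher and 2 were lower, with a median of -0.16, and 3 were higher and 2 lower without mouse 3, with a median of 0.05.

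Fatty acid oxidation genes and PPAR targets were lower in 17 and higher in 3 of 44, with a median of -0.36 (14 lower, 4 higher and -0.20 without mouse 3). Acsl1, which activates long-chain fatty acids, was at 46.2 to 198 TPM in cachectic and at 242, 309, 223, 226 and 237 TPM in non-cachectic mice (log2 fold change -1.12 ± 0.23, limma adjusted p = 0.000409). Ucp3 was at 16.8 ± 7.44 TPM against 37.1 ± 8.32 TPM (limma adjusted p = 0.00778), and the coactivator Ppargc1b at 4.83 ± 3.12 TPM against 11.7 ± 1.92 TPM (limma adjusted p = 0.00607). Pdk4, the kinase that restrains pyruvate oxidation in fasted muscle, was lower with mouse 3 (log2 fold change -1.29, limma adjusted p = 0.0423) and did not pass without it (limma adjusted p = 0.115). Of the 13 mitochondrially encoded transcripts, 7 were lower and none higher with a median of -0.20, and 7 were lower without mouse 3; after median-ratio scaling 2 were lower. The share of TPM from these transcripts was 40.7 ± 7.78% in cachectic and 45.2 ± 0.416% in non-cachectic mice, a difference of -4.43 percentage points (two-sided exact permutation test, p = 0.27). Without mouse 3 the share was 38.0 ± 3.19% and the difference -7.16 points (two-sided exact permutation test, p = 0.00433). Nuclear-encoded genes of oxidative phosphorylation gave no common direction, with 7 of 77 higher and 10 lower, and the sign of their median changed with the scaling (0.06 as deposited, -0.06 after quantile normalization). Sdhc, a subunit of complex II, was at 97.3 to 223 TPM against 242 to 274 TPM (limma adjusted p = 0.00144), and the mitochondrial superoxide dismutase Sod2 was at 116 to 216 TPM against 230 to 310 TPM (log2 fold change -0.79 ± 0.12, limma adjusted p = 7.5e-06), both without overlap.

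Many extracellular matrix genes were lower in cachectic mice. Of 31 tested collagens, 15 were lower and none higher, with a median of -0.72 (12 lower, 1 higher and -0.48 without mouse 3), and 19 to 20 were lower under the other scalings. Col15a1, a collagen of the basement membrane zone, was at 2.07 to 10.6 TPM in cachectic mice and at 34.4, 51.0, 10.9, 44.6 and 50.4 TPM in non-cachectic mice, without overlap (log2 fold change -2.25 ± 0.39, limma adjusted p = 3.96e-05). The fibrillar collagen Col3a1 was at 7.93 to 82.1 TPM against 108, 168, 40.1, 126 and 161 TPM (log2 fold change -1.90 ± 0.39, limma adjusted p = 0.000444), and Col1a1 at 2.81 to 38.1 TPM against 67.7, 111, 19.4, 72.4 and 77.4 TPM (-2.11 ± 0.46, limma adjusted p = 0.000853). In all 3 collagens the lowest non-cachectic value was that of non-cachectic mouse 3. Mfap4, a microfibril protein (chr11:61485431-61488900), was at 1.78 to 24.1 TPM against 41.7, 40.0, 10.6, 45.5 and 63.0 TPM (log2 fold change -2.45 ± 0.38, limma adjusted p = 7.76e-06). Nrep, which is linked to TGF-beta signalling, was at 4.15 to 39.1 TPM against 39.6 to 107 TPM (-2.33 ± 0.35, limma adjusted p = 5.11e-06), and the proteoglycan Chad at 1.38 ± 1.06 TPM against 7.81 ± 2.97 TPM (limma adjusted p = 0.000779). Of the other matrix lists, 5 of 17 proteoglycans, 5 of 21 elastic fiber genes and 5 of 23 basement membrane genes were lower, with 0, 1 and 0 higher. Without mouse 3 the counts were 5, 5 and 3 lower and 2, 2 and 0 higher. The crosslinking enzyme Lox and the matrix metalloprotease Mmp3 went the other way. Lox was at 2.10 to 23.2 TPM against 2.82 to 5.33 TPM (log2 fold change 1.23, limma adjusted p = 0.00208) with mouse 3 the lowest, and Mmp3 at 2.36 to 12.9 TPM against 0.231 to 2.18 TPM (log2 fold change 1.73, limma adjusted p = 1.45e-05). In bulk muscle, fewer fibroblasts and less matrix RNA per fibroblast cannot be told apart. Of the 9 fibroblast markers 2 were lower, which were Col1a1 and Col3a1 themselves. In all, 7 of the 9 had a negative estimate, with a median of -0.41. Without mouse 3, 3 were lower and 1 higher, with a median of -0.30. The summed level of these markers was 796.8 to 2012 TPM in cachectic and 888 to 1263 TPM in non-cachectic mice.

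**Figure D3:**
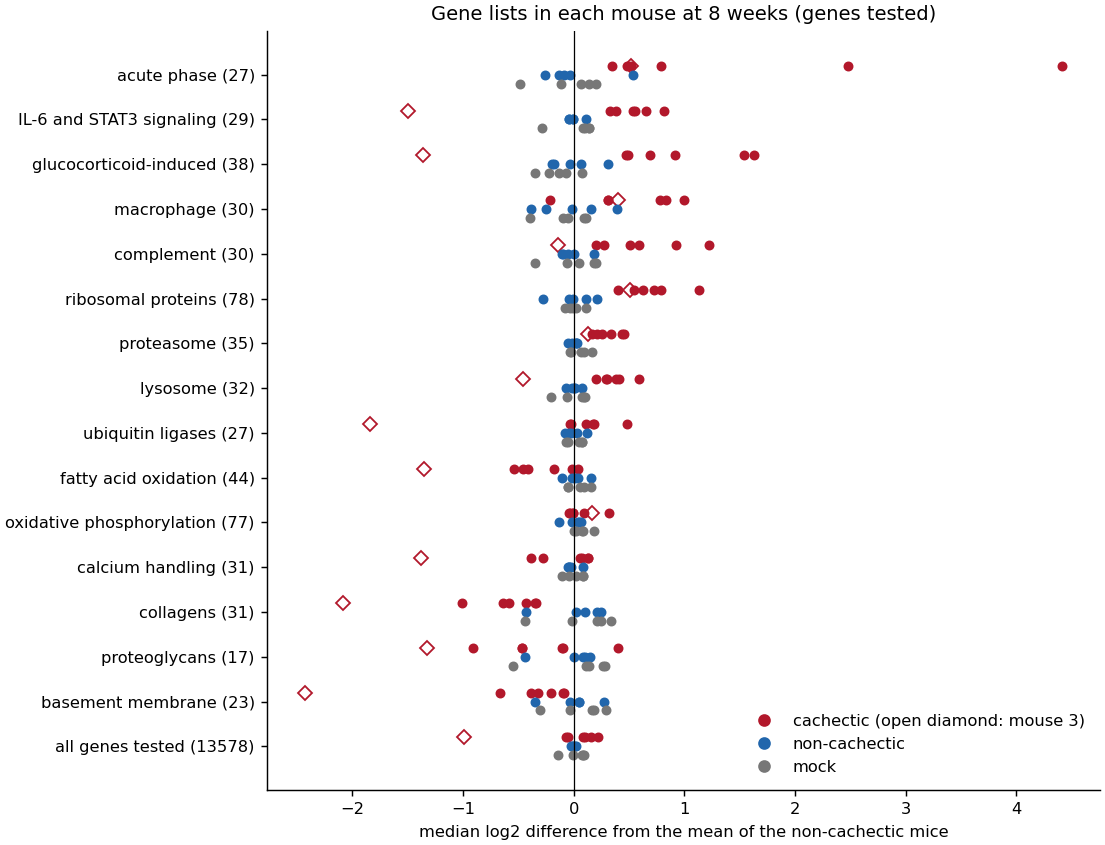
Median log2 difference from the non-cachectic mean for 16 gene lists, 1 point per mouse; red is cachectic with mouse 3 as an open diamond, blue non-cachectic and grey mock-injected. Ribosomal protein genes are above zero in all 7 cachectic mice (0.40 to 1.13), collagens are below zero in all 7 (-2.09 to -0.34), and for the glucocorticoid list mouse 3 (-1.36) lies opposite to the other 6 (0.47 to 1.63).

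Apelin and its receptor fell together. Apln, a vasoactive peptide also secreted by muscle (chrX:48025146-48034853), was at 0.118 to 1.38 TPM in cachectic mice and at 5.70, 4.59, 4.11, 4.20 and 5.27 TPM in non-cachectic mice, without overlap (log2 fold change -1.85 ± 0.24, limma adjusted p = 3.22e-07). Aplnr was at 0.298 to 2.26 TPM against 8.42, 11.1, 1.73, 10.04 and 13.7 TPM (log2 fold change -2.06 ± 0.38, limma adjusted p = 8.95e-05), the low value again being that of non-cachectic mouse 3. Without cachectic mouse 3 the log2 fold changes were -1.83 and -2.13. Of 37 endothelial genes, 4 were higher and 3 lower with all mice, and 8 were higher and 2 lower without mouse 3. All tested genes had shares of 6.75% higher and 6.19% lower, and of 13.1% and 4.76% without mouse 3. Gpihbp1, which holds lipoprotein lipase on capillaries, was at 38.6 to 72.7 TPM against 23.8 to 42.1 TPM (log2 fold change 0.92, limma adjusted p = 0.000402).

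Immune genes changed in chemokines, macrophages and complement. Ccl8, a chemoattractant of monocytes, was at 14.6, 230, 92.4, 18.9, 52.8, 6.13 and 43.1 TPM in cachectic mice 1 to 7 and at 2.73, 1.1, 4.54, 1.12 and 0.964 TPM in non-cachectic mice. All cachectic mice including mouse 3 were above the non-cachectic range (log2 fold change 3.75 ± 0.59, limma adjusted p = 8.85e-06). Ackr1, the chemokine-binding receptor of venules, was the most even of these genes, with 7.57 to 10.6 TPM in cachectic and 1.99 to 3.03 TPM in non-cachectic mice (log2 fold change 1.38 ± 0.17, limma adjusted p = 7.19e-08). Of 30 chemokine genes, 6 were higher and 1 lower, and Cxcl13 did not pass, at 15.2 to 333 TPM against 0.947 to 71.5 TPM (limma adjusted p = 0.227). Of 30 macrophage genes, 10 were higher and none lower with a median of 0.47, and the same number was higher without mouse 3. The scavenger receptor Cd163 was at 3.81 to 25.0 TPM against 3.87 to 5.55 TPM, with mouse 3 the lowest (log2 fold change 1.40, limma adjusted p = 0.000212), and C1qb at 34.6 to 112 TPM against 21.9 to 51.7 TPM (1.06, limma adjusted p = 0.00518). Among the 10 macrophage markers, 6 were higher and none lower, with a median log2 fold change of 0.82, and 6 were higher without mouse 3. The sum over these markers overlapped between the groups. It was 305 to 1206 TPM (median 811) in cachectic and 248.9 to 1348 TPM (median 376) in non-cachectic mice. Of 30 complement genes 7 were higher and none lower, and the terminal component C6 was at 1.54 to 4.58 TPM against 0.0642 to 0.569 TPM (log2 fold change 1.44 ± 0.20, limma adjusted p = 8.09e-07).

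Neutrophil and T cell transcripts were low. Of 14 tested neutrophil genes, 6 were higher and 1 lower, led by Lcn2, which muscle also makes. Without cachectic mice 1 and 2, 3 were higher and 1 lower. The calprotectin subunit S100a8 was at 3.30 to 20.5 TPM against 1.87 to 3.87 TPM (log2 fold change 1.35, limma adjusted p = 0.0317), and did not pass without these mice (limma adjusted p = 0.0717). Wfdc21 was at 8.02 to 77.6 TPM against 0.258 to 9.39 TPM (log2 fold change 3.03 ± 0.89, limma adjusted p = 0.0158) but likewise did not pass without them (limma adjusted p = 0.0904). The 9 neutrophil markers summed to 9.23 to 75.2 TPM in cachectic and to 9.61 to 14.2 TPM in non-cachectic mice. Of 14 T cell markers, 9 were below 1 TPM in all 12 libraries. The design and the study's methods name a strain without a thymus, and the part of the strain in these levels was not tested. B cell markers ranged from 5.259 to 6212 TPM in sum in cachectic mice, with the highest sum in mouse 3, and from 40.4 to 3195 TPM in non-cachectic mice, and none of the 11 passed. The sum of erythroid markers was also highest in mouse 3, at 41280 TPM. Interferon response and antigen presentation genes had 1 lower member of 48, Gbp4, and none higher, and Gbp4 did not pass without cachectic mice 1 and 2 (limma adjusted p = 0.0718).

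**Figure D4:**
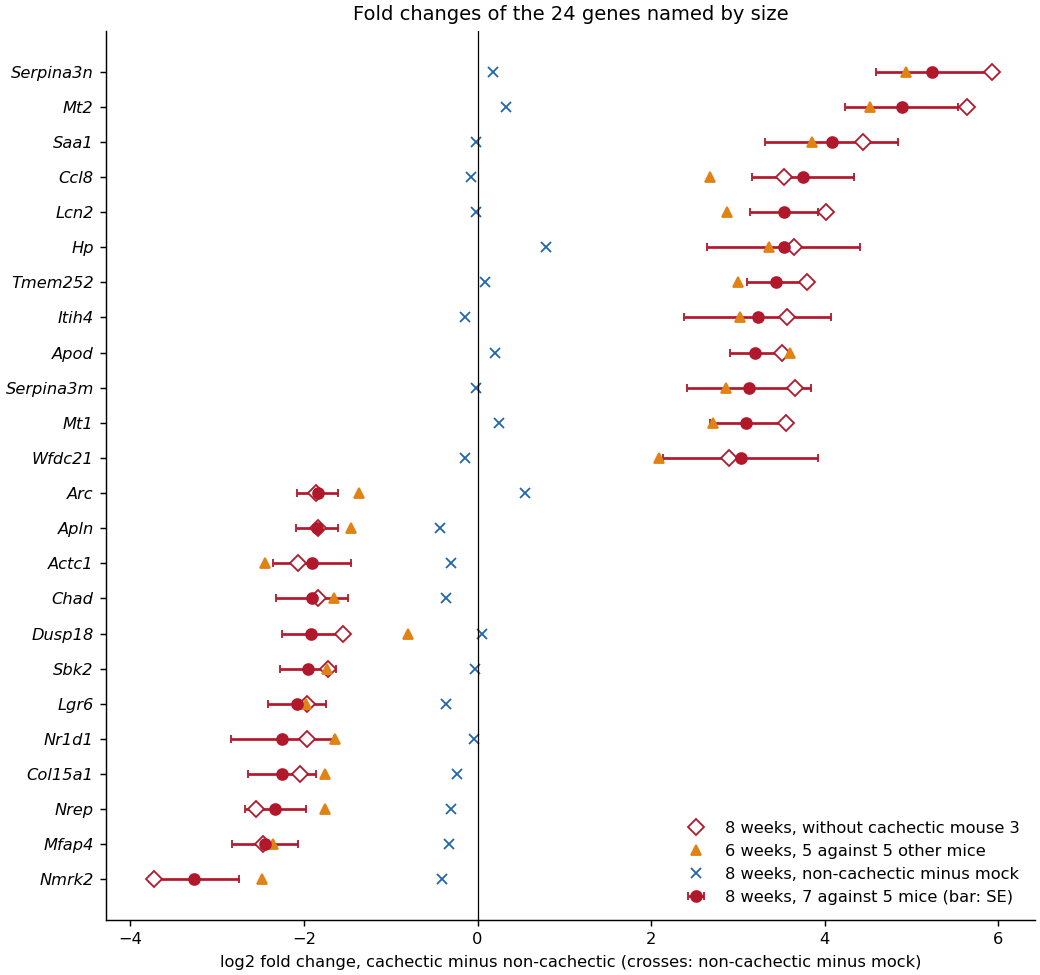
Log2 fold changes of 24 genes between cachectic and non-cachectic mice at 8 weeks with their standard errors, beside the estimate without cachectic mouse 3, the estimate at 6 weeks, and the difference of non-cachectic from mock-injected mice at 8 weeks (crosses). For Serpina3n the 3 estimates are 5.24, 5.93 and 4.93, and for Nmrk2 -3.27, -3.73 and -2.48, whereas the crosses lie at 0.18 and -0.41.

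Several further genes had large changes. Tmem252, a transmembrane protein of little known role, was at 2.23 to 22.1 TPM in cachectic mice and at 0.486, 0.250, 0.231, 0.253 and 0.240 TPM in non-cachectic mice (log2 fold change 3.44 ± 0.34, limma adjusted p = 2.34e-10). Scgb3a1, a secretoglobin, was at 2.24 to 18.3 TPM against 0.260 to 0.431 TPM (log2 fold change 2.98 ± 0.27, limma adjusted p = 2.34e-11). Both groups of values were without overlap and mouse 3 was the lowest cachectic mouse in each. Arc, an activity-regulated gene, was at 0.106 to 0.437 TPM against 3.69, 4.49, 3.07, 3.00 and 3.08 TPM (log2 fold change -1.84 ± 0.23, limma adjusted p = 1.45e-07). The stem cell receptor Lgr6 was at 0.156 to 1.69 TPM against 1.92 to 13.2 TPM (-2.08 ± 0.33, limma adjusted p = 1.2e-05), the kinase Sbk2 at 1.84 to 10.7 TPM against 16.6 to 35.6 TPM (-1.95, limma adjusted p = 2.1e-05) and the phosphatase Dusp18 at 1.00 to 17.1 TPM against 24.8 to 43.9 TPM (-1.92, limma adjusted p = 2.27e-05). All 7 cachectic mice were below the non-cachectic range in each of these 4 genes. Fibcd1, the myokine in the title of the series, was at most 0.0122 TPM in the 12 mice and was not tested.

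Genes for nutrient use and cell growth gave scattered changes. Glul, which makes glutamine, was at 705 ± 360 TPM against 214 ± 60.5 TPM (log2 fold change 1.5, limma adjusted p = 0.00556), and Slc3a2, a subunit of amino acid exchangers, at 43.1 ± 16.2 TPM against 18.1 ± 3.60 TPM (limma adjusted p = 0.000441). The heme oxygenase Hmox1 was at 7.25 to 115 TPM against 7.91 to 12.3 TPM and the plasma glutathione peroxidase Gpx3 at 88.4 to 2075 TPM against 223 to 488 TPM (limma adjusted p = 0.00234 and 0.0159), with mouse 3 the lowest in both. The insulin receptor substrate Irs1 fell from 15.3 ± 2.45 to 7.10 ± 4.19 TPM (limma adjusted p = 0.00169) and the growth factor binding protein Igfbp3 rose from 28.6 ± 11.8 to 85.2 ± 47.8 TPM (limma adjusted p = 0.011). Without cachectic mice 1 and 2, Gpx3 and Igfbp3 did not pass (limma adjusted p = 0.102 and 0.0638). Of the 27 cell cycle genes tested, 7 were lower and 2 higher (7 and 4 without mouse 3), and cyclin D1 (Ccnd1) was at 0.905 to 3.86 TPM against 3.92 to 11.6 TPM (log2 fold change -1.36, limma adjusted p = 0.00103). The clock repressor Nr1d1 was at 3.86 to 60.7 TPM against 71.3, 180, 102, 67.6 and 115 TPM (log2 fold change -2.25 ± 0.60, limma adjusted p = 0.00674), and of the 22 clock genes 1 was higher and 2 were lower with all mice, and 5 were higher and 2 lower without mouse 3. The time of day of tissue collection is not given in the sources used here.

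The same contrast at 6 weeks, in other mice (5 of each group), was set beside that at 8 weeks. At 6 weeks 155 of the 13578 tested genes were called higher and 53 lower. Of the 157 genes called higher at 8 weeks, 157 had the same sign at 6 weeks and 102 (65.0%) were called, which is 65.8% of those called higher at 6 weeks. Of the 187 genes called lower at 8 weeks, 185 had the same sign at 6 weeks and 42 (22.5%) were called, which is 79.2% of the 6-week list. The share of all tested genes with the same sign at both times was not computed. The median log2 fold change of the genes called higher was 1.36 at 8 weeks and 1.28 at 6 weeks, and that of the genes called lower -1.24 and -0.76. These genes were chosen on their 8-week values, which favors the 8-week estimate. Over all tested genes the median was -0.08 at 8 weeks and 0.14 at 6 weeks. The median difference between the 2 contrasts over all genes was -0.22 with cachectic mouse 3 and -0.05 without it. Among the genes called lower at 8 weeks, 115 were also called without this mouse, and their median without it was not computed. Serpina3n was at 300 ± 164 TPM in cachectic and 8.26 ± 2.38 TPM in non-cachectic mice at 6 weeks (log2 fold change 4.93, limma adjusted p = 5.1e-06). Trim63 was at a log2 fold change of 1.34 at 6 weeks (limma adjusted p = 0.061). Ribosomal protein genes were higher in 42 of 78 at 6 weeks with a median of 0.45, and collagens lower in 6 of 31 with a median of -0.43. No gene passed the test of the difference between the 8-week and 6-week contrasts (limma adjusted p at least 0.756, with 345 genes at an unadjusted p under 0.05), nor between the 8-week and 4-week contrasts (adjusted p at least 0.165, with 791 genes at an unadjusted p under 0.05). A p that misses the threshold does not show that the contrasts were alike.

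Non-cachectic mice were also compared with the 5 mock-injected mice of 8 weeks, and no gene passed by limma (55 genes at an unadjusted p under 0.05). The non-cachectic and mock-injected means were 9.49 and 7.42 TPM for Serpina3n, 18.9 and 13.4 TPM for Mt2, 109 and 138 TPM for Nmrk2 and 40.2 and 46.4 TPM for Mfap4. This comparison shares its non-cachectic mice with that of cachectic and non-cachectic mice, and the values are given side by side for that reason.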

How the data were processed

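RNA was extracted from the diaphragm, and the libraries were sequenced by the authors. The labels name the TruSeq stranded mRNA kit, whereas the methods of the study name a different TruSeq RNA kit. Reads were mapped by the authors to mm10, and CLC Genomics Workbench gave gene levels, deposited as TPM in 1 table of 47643 genes and 62 libraries. TPM does not keep read depth, so counting error is unknown, and TPM of one gene depends on that of all others. All 62 columns were matched to samples by name, and 0 other columns of samples were present.

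TPM was transformed to log2(TPM + 1), and genes that reached 1 TPM in 5 or more of the 62 libraries were fitted with limma (version 3.58.1, R 4.3.3). The model had 1 mean for each of 12 conditions and a moderated variance with an intensity trend, and p-values were adjusted by Benjamini and Hochberg over all 13578 genes. A called gene had a change of more than 1 on the log2 scale in either direction and an adjusted p under 0.05. The script was tested on simulated data. Shares per library were compared with exact permutation tests (scipy 1.17.1). Lists are described by counts and medians, with no set test.

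The genes named were the 12 largest changes in each direction with at least 6 of 7 cachectic mice outside the non-cachectic range, up to 4 passing members of each list (or up to 2 of the highest level where fewer than 2 passed), and a fixed panel. The members, lists and panel were chosen with earlier results of these data known, and the leave-outs of cachectic mice 1 and 2 and of mouse 3 of both groups were added after the 8-week values were seen. Each replicate is taken as 1 mouse. The limma p-values rest on the spread between mice within conditions, estimated over all 62 libraries and not over these 12 alone. A fit of the groups compared alone gave 70 genes higher and 97 lower. Promoters came from RefSeq (GRCm38.p6), where 10 of 12 genes looked up had a window, and gene positions and exonic lengths from GENCODE. Antisense and overlapping genes cannot be told apart if strand was not used in counting.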

Additional observations from a re-analysis of the deposited data

Results flagged for a closer look

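The 51 values of the 49 genes and 2 library measures that carry the account were checked in both groups of 8 weeks, and a mouse was singled out where its gap to the nearest other exceeded Dixon's critical value; chance singles out a mouse in about 1 in 20 groups, and it happened in 33 of 102 groups. Of these, 19 were cachectic mouse 3 and 13 were non-cachectic mouse 3. Cachectic mouse 3 was the extreme for genes above 0 TPM (15263) and for the mitochondrial share (57.1%). On log2(TPM + 1) it was the lowest of its group for Serpina3n (4.277), Mt2 (4.45), Lcn2 (2.629), Tmem252 (1.691), Apod (5.673), Serpina3m (0.4194), Socs3 (2.014), Il6ra (0.423) and Osmr (1.794). It was also the lowest for Fkbp5 (1.385), Myh1 (9.132), Myh2 (9.381), Myh7 (5.984), Psmd11 (3.244), Myog (1.093), Pdk4 (6.187) and Smox (0.8218).

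Non-cachectic mouse 3 was the highest of its group for Serpina3n (4.504), Mt2 (5.467), Saa1 (0.9522), Itih4 (2.782), Mt1 (7.189), Il6ra (3.301) and Fkbp5 (5.222), and the lowest for Mfap4 (3.536), Nrep (5.345), Col15a1 (3.571), Chad (1.992), Aplnr (1.448) and Col1a1 (4.35), which is the direction of the cachectic mice in each of these genes. Its median difference from the other non-cachectic mice was 0.35 over the genes called higher and -0.41 over those called lower. Its liver marker median was 1.78, the highest of its group. Leaving it out gave 170 genes higher and 216 lower. Non-cachectic mouse 1 was the highest of its group for Tmem252 (0.5718). No condition other than the labelled one was assigned to any of these mice.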

How the results depend on the processing

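The 157 genes higher and 187 lower became 269 and 124 without cachectic mouse 3, and leaving out each mouse in turn gave 129 to 269 higher and 124 to 250 lower. Array quality weights gave 281 and 98, a fit of the groups compared alone 70 and 97, Dunn's test 35 and 98, and a pseudocount of 0.1 gave 380 lower. Rescaling over nuclear genes gave 345 lower. Without the 4 libraries listing fewest genes 274 were higher, and without mouse 3 of both groups 296. At 6 weeks 208 genes were called; Dunn's test gave 0 (3608 at an unadjusted p under 0.05; limma 2415), and single leave-outs gave 131 (without cachectic mouse 1) to 217. The difference between the 8-week and 4-week contrasts, with 0 genes, gave 6 after median-ratio scaling, 5 after quantile normalization, 138 with array weights and 31 without the 4 libraries; leave-outs gave 0 to 11, the highest without cachectic mouse 3 of 8 weeks and 8 without cachectic mouse 2 of 4 weeks. That between 8 and 6 weeks and the comparison with mock gave 0 throughout. The mitochondrial share difference was -7.16 without cachectic mouse 3 and -7.16 to -3.05 over leave-outs, and that of genes above 0 was -711 to -149.

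With array weights, Sox10 (0.41, limma adjusted p = 0.00341) and Cdh15 (0.28, limma adjusted p = 0.0247) changed sign and passed. The 218 named genes include some that did not pass with all mice, such as Trim63 and Fbxo32. Of the 218, 122 no longer passed under Dunn's test and 111 in the fit of the groups compared alone. The cause of these changes was not tested. TPM keeps no depth, so no limit of detection could be set for single genes.

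The replicate numbers did not pair the mice: same-numbered mice correlated at -0.30, -0.13, 0.25, 0.16 and 0.11 in their deviations from group means. With a replicate block, in which cachectic mice 6 and 7 had no partner, 116 genes were higher, 258 lower and 181 called at 6 weeks, with 0 for the other contrasts; the blocked mitochondrial difference was -2.37 (exact permutation p = 0.625) and that of genes above 0 was -733.8 (exact permutation p = 0.4375).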
